A study of Homo sapiens with 23 samples.

Results

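Metallothioneins are small cysteine-rich proteins that bind zinc, copper and cadmium, and their genes lie next to each other on the long arm of chromosome 16, at 16q13. The members examined here were chosen by name: 10 genes of this cluster, MT1A, MT1DP, MT1E, MT1F, MT1G, MT1H, MT1M, MT1X, MT2A and MT1L. The group was picked because the mean log2 value of MT1DP was lower in the prexasertib-resistant than in the parental libraries of all 4 cell lines, so the resistant against parental values of the members are given as a description, without p-values. Where members past the threshold used for all genes are counted, the count stands beside the share of all genes and is no test of the group. Of the 10 genes, 9 had a row in the table of 21658 genes, and MT1H was not analysed here.

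RNA was sequenced from 4 established ovarian cancer cell lines, OV-90, Kuramochi, OVSAHO and EFO-21, each as the parental line and as a line made resistant to prexasertib, an inhibitor of the checkpoint kinase CHK1, by long exposure to rising drug concentrations. The 23 libraries fall into 8 groups of 3, except for parental OV-90 with 2, and the labels call the libraries of a group biological replicates. The sources do not say that a resistant line was selected more than once, so a p-value measures the spread between libraries of one resistant line and not between selections. No group carried an engineered allele, and whether the resistant cells were under drug when RNA was taken is not stated in the sources used here.

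Transcription of metallothionein genes is switched on by zinc and cadmium through the zinc-sensing factor MTF1, which binds metal response elements in their promoters, and several members also respond to glucocorticoids and to oxidant stress. MT2A and the MT1 genes are made in most tissues, whereas MT3 is best known from the brain. MT1DP and MT1L are annotated as pseudogenes that are still transcribed.

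The sequences show how alike the members are and where the pseudogenes part from the coding genes. Each line below gives a coding sequence, or for a pseudogene its whole annotated transcript, from GENCODE on GRCh37, written 5′ to 3′, with in-frame cysteine codons (TGC or TGT) and in-frame stop codons (TGA) in capitals. MT2A is shown as the reference coding gene, MT1G as a member whose value was much lower in resistant OV-90 and EFO-21, and MT1L and MT1DP as the pseudogenes.
MT2A: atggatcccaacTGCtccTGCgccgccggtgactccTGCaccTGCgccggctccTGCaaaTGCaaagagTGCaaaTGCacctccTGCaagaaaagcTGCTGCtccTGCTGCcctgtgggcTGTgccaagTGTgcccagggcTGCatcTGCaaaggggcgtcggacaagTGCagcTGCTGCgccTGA
MT1G: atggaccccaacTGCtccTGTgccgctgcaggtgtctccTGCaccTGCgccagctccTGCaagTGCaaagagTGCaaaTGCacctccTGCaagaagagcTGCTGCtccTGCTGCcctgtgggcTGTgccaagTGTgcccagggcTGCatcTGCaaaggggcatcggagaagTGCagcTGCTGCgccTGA
MT1L: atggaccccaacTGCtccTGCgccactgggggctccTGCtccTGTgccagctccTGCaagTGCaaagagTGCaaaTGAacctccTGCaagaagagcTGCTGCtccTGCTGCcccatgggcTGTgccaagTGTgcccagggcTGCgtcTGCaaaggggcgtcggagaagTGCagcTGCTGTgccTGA
MT1DP: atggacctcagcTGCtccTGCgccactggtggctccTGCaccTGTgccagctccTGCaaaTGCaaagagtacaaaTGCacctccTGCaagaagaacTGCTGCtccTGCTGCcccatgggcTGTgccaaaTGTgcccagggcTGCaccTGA

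MT2A encodes 61 codons before its stop, and 20 of them are cysteine codons. MT1G is 1 codon longer, with 62, and also has 20 cysteine codons, as do MT1X, MT1F, MT1E, MT1M and MT1A. In MT1L the reading frame meets a stop at codon 26, after 7 cysteine codons. In MT1DP it stops at codon 50, after 15 cysteine codons. Between MT2A and MT1X, 172 of 186 bases of the coding sequences are identical (92.5%), and MT1E and MT1A share 176 of 186 (94.6%).

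On GRCh37 the cluster runs from MT2A (chromosome 16, 56642496 to 56643409, plus strand) to MT1X (56716382 to 56718108, plus strand). In that order come MT1L (56651475 to 56652592), MT1E (56659387 to 56661024), MT1M (56666571 to 56667893), MT1A (56672578 to 56673999), MT1DP (56677637 to 56678677), MT1F (56691643 to 56694610) and MT1G (56700642 to 56701977), of which MT1G alone is annotated on the minus strand.

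Each gene has 1 quantile-normalized value per library on a log2 scale, and no read counts were used here, so depth is unknown and levels are compared here between libraries for 1 gene and not between genes. Values at or under the 10th percentile of a library, which was 1.70 to 1.87, are called the bottom, and a difference between bottom values is not a measured fold change. The 2 parental OV-90 libraries, numbered 2 and 3, had a profile correlation of 0.952 with each other across genes, and library 3 reached 0.949 with a resistant OV-90 library. In the 7 other groups the lowest correlation within a group ranged from 0.971 to 0.986. Library 2 was higher than library 3 in 7 of 9 members, by 0.84 (MT1G) to 1.82 (MT1X) on the log2 scale, and lower in MT1DP and MT1L, while 54.2% of all genes were higher in library 2. OV-90 differences are therefore given with both libraries and without each, and in the latter case the lone parental library is assumed to vary like the resistant ones.

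Cell type markers were at different levels in the 4 lines, and several changed with resistance. The keratins KRT8 and KRT18, defining markers of epithelial tumour cells, lay between 8.67 and 12.45 in all libraries, and both were lower in every resistant line without overlap, with KRT18 called in Kuramochi (-1.13 ± 0.09, adjusted p = 0.000169). PAX8, a Müllerian lineage factor, lay between 8.42 and 9.50 in Kuramochi, OVSAHO and EFO-21 but between 1.77 and 2.43 in OV-90. WT1, a marker of serous ovarian carcinoma, was at 5.65 to 8.30 in Kuramochi and OVSAHO and did not exceed 2.09 in OV-90 and EFO-21. Of 8 markers of ovarian carcinoma cells, 6 fell in resistant Kuramochi and 3 in resistant OVSAHO, and 0 were called in OV-90 and EFO-21. Over all genes, 10.6% were called lower in Kuramochi and 3.83% in OVSAHO. EPCAM, an epithelial adhesion gene, fell by 3.78 ± 0.19 in Kuramochi (adjusted p = 3.34e-05), and in OVSAHO it fell by 3.01 ± 0.05 (adjusted p = 1.23e-05). In the same lines KRT19 fell by 3.96 ± 0.16 (adjusted p = 1.64e-05) and 2.31 ± 0.17 (adjusted p = 0.000457). MUC16, the gene of the CA-125 antigen, fell by 4.59 ± 0.13 in OVSAHO (adjusted p = 3.39e-05). The summed level of the 8 markers (log2 of the sum of unlogged values) was 13.68 to 13.87 in parental and 12.69 to 12.75 in resistant Kuramochi, and 12.72 to 12.83 and 12.64 to 12.80 in OVSAHO.

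Markers of other cell types were also high in some lines, such as LUM with 12.02 to 13.21 in OV-90 and CDH5 with 9.03 to 9.43 in EFO-21. Of 4 fibroblast markers, 2 rose and 2 fell in resistant Kuramochi and 2 rose and 1 fell in resistant OVSAHO, where the matrix genes LUM (4.73 ± 0.43, adjusted p = 0.000954) and DCN (4.22 ± 0.16, adjusted p = 6.17e-05) rose and the summed level was 4.76 to 5.11 in parental and 7.44 to 7.75 in resistant libraries. Of 3 endothelial markers, CDH5 rose in Kuramochi (2.87 ± 0.17, adjusted p = 7.00e-05), where VWF fell. In OVSAHO CDH5 was called higher (1.29 ± 0.14, adjusted p = 0.00187), but all its values there were at the bottom. They were -0.39 to -0.06 in parental and 0.98 to 1.16 in resistant libraries, so this is not a measured fold change. PECAM1 fell in OV-90 (-2.89 ± 0.18, adjusted p = 0.00456), where the summed endothelial level was 6.41 to 6.46 in parental and 3.94 to 4.03 in resistant libraries. Of 4 leukocyte markers, 1 fell in Kuramochi, 2 in OVSAHO and 1 in EFO-21. PTPRC, the pan-leukocyte marker, did not exceed 4.65 and fell in OVSAHO (-2.88 ± 0.31, adjusted p = 0.00165), and CD3E was listed at 0 in all 3 resistant Kuramochi libraries. The part of these markers in the metallothionein values was not tested, and in bulk RNA fewer cells making a transcript and less transcript per cell cannot be told apart.

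MT2A, the main metallothionein of most human tissues, was higher in resistant Kuramochi and lower in the other resistant lines, and resistant and parental libraries did not overlap in any line. In Kuramochi its log2 values were 12.11, 12.44 and 12.60 in the parental libraries and 13.04, 13.09 and 13.16 in the resistant libraries, a difference (resistant minus parental) of 0.71 ± 0.13 (SE). In EFO-21 they were 11.54, 11.59 and 11.74 in parental and 10.998, 11.19 and 11.09 in resistant libraries, a difference of -0.53 ± 0.07. In OVSAHO they were 10.17, 10.01 and 10.08 in parental and 9.58, 9.62 and 9.50 in resistant libraries, a difference of -0.52 ± 0.05. These separations are tight, since no group of these 3 lines spanned more than 0.5 on the log2 scale. In OV-90 the parental values of 9.30 and 8.30 stood above resistant values of 7.81, 7.88 and 8.15, a difference of -0.85 ± 0.32, which was -0.35 without library 2 and -1.35 without library 3. None of the 4 differences reached 1 on the log2 scale, the 2-fold limit used for a call.

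MT1X, a metal-inducible MT1 isoform, differed little between resistant and parental libraries except in OVSAHO. There its log2 values were 8.17, 7.88 and 7.91 in parental and 7.34, 7.43 and 7.18 in resistant libraries, a difference of -0.67 ± 0.10 with no overlap. In Kuramochi they were 9.38, 9.75 and 9.80 in parental and 9.54, 9.51 and 9.67 in resistant libraries, a difference of -0.07 ± 0.12. In EFO-21 they were 6.49, 6.08 and 6.65 in parental and 6.37, 6.49 and 6.46 in resistant libraries, a difference of 0.03 ± 0.15. The groups of these 2 lines overlapped. In OV-90 the parental values of 5.63 and 3.81 enclosed the resistant values of 4.71, 4.97 and 5.53, and the difference of 0.35 ± 0.61 turned from 1.26 without library 2 to -0.56 without library 3.

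MT1F, another metal-inducible isoform, had a lower mean in the resistant libraries of all 4 lines. In EFO-21 its log2 values were 7.93, 7.88 and 7.63 in parental and 5.58, 5.51 and 5.54 in resistant libraries, a difference of -2.27 ± 0.09 (4.82-fold lower). In OVSAHO they were 9.76, 9.58 and 9.44 in parental and 8.14, 8.20 and 8.11 in resistant libraries, a difference of -1.44 ± 0.08 (2.71-fold lower). In Kuramochi they were 9.68, 9.99 and 10.18 in parental and 9.31, 9.38 and 9.61 in resistant libraries, a difference of -0.52 ± 0.14. In these 3 lines every resistant library lay below every parental one. In OV-90 the groups overlapped, with parental values of 6.93 and 5.66 and resistant values of 5.60, 5.96 and 5.26, and the difference of -0.69 ± 0.45 was -0.05 without library 2 and -1.32 without library 3.

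**Figure D1:**
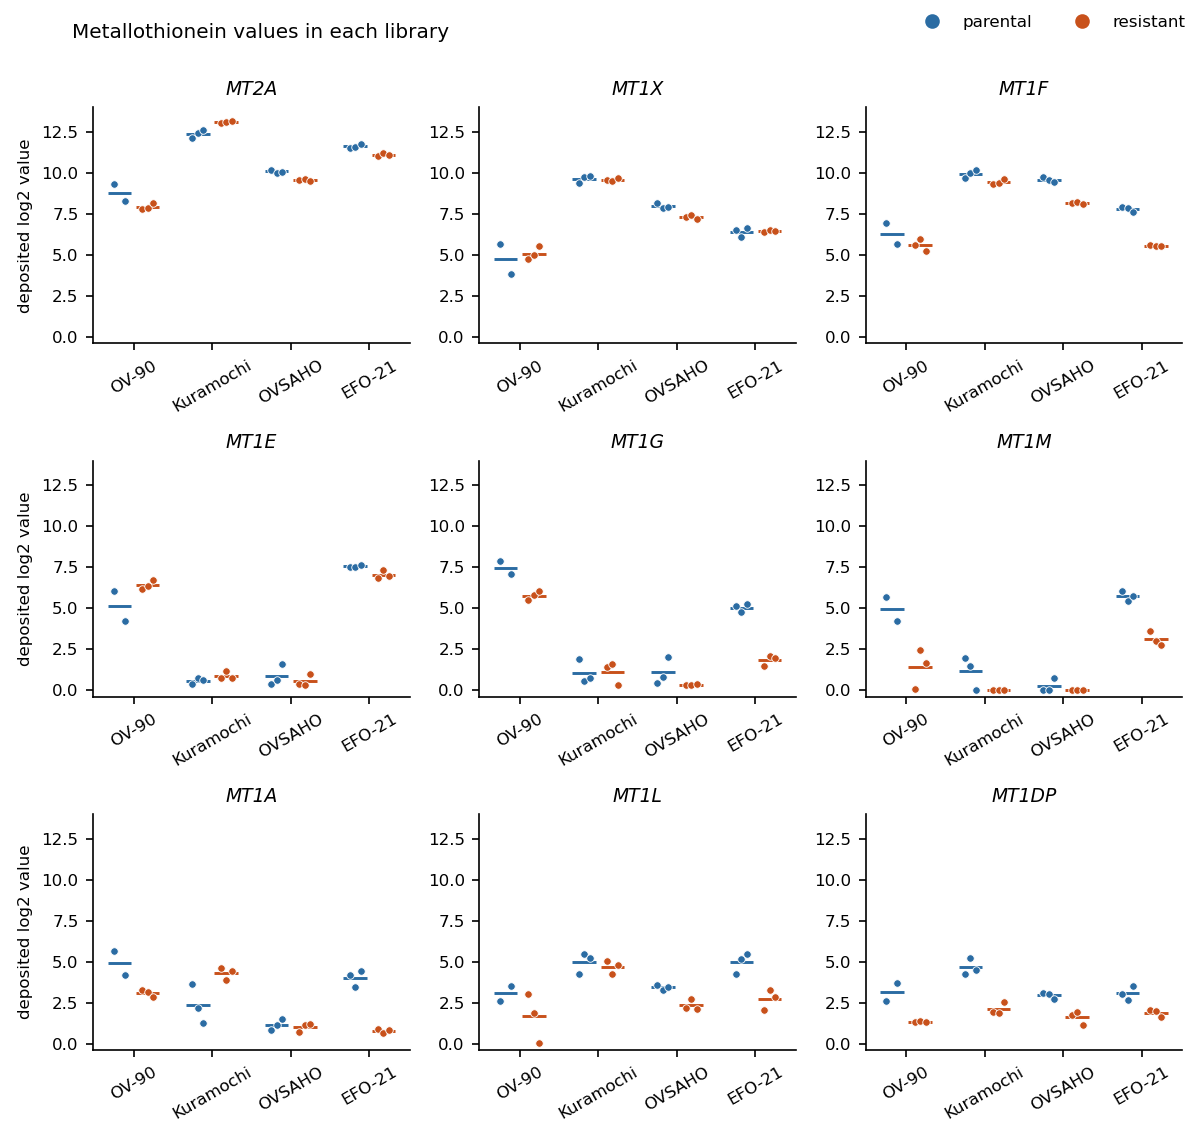
Deposited log2 values (vertical axis) of the 9 metallothioneins in each of 23 libraries, by cell line (horizontal axis), with parental libraries in blue and resistant libraries in orange; points are libraries and bars are group means. MT1E, MT1G and MT1M sit high in OV-90 and EFO-21 and near 0 in Kuramochi and OVSAHO, and MT1DP is lower in the resistant libraries of each line.

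MT1E is a coding MT1 gene that was at the bottom in every Kuramochi and OVSAHO library, parental and resistant, with values of 0.29 to 1.61. In EFO-21 its log2 values were 7.53, 7.51 and 7.62 in parental and 6.85, 7.32 and 6.96 in resistant libraries, a difference of -0.51 ± 0.12 with no overlap. In OV-90 the parental values were 6.04 and 4.23 and the resistant values 6.19, 6.35 and 6.71, a difference of 1.28 ± 0.57, with 2.19 without library 2 and 0.38 without library 3. The OV-90 difference was thus set by which parental library was kept, and it was not called.

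MT1G, a coding MT1 gene, was lower in both resistant lines whose parental cells held a value well above the bottom. In EFO-21 its log2 values were 5.14, 4.74 and 5.23 in parental and 1.44, 2.09 and 1.98 in resistant libraries, a difference of -3.20 ± 0.24 (9.17-fold lower). The resistant value of 1.44 was at the bottom. In OV-90 they were 7.90 and 7.06 in parental and 5.47, 5.77 and 6.04 in resistant libraries, a difference of -1.72 ± 0.31 that was -1.30 without library 2 and -2.13 without library 3. The groups did not overlap in either line. In Kuramochi the values were 1.88, 0.58 and 0.76 in parental and 1.39, 1.59 and 0.28 in resistant libraries, and in OVSAHO they were 0.43, 0.77 and 2.04 in parental and 0.29, 0.31 and 0.38 in resistant libraries. Of these 12 libraries 10 were at the bottom.

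MT1M, a coding MT1 gene, had a lower mean in the resistant libraries of all 4 lines, with no overlap in any, but only OV-90 and EFO-21 had parental values above the bottom in all libraries. In EFO-21 its log2 values were 6.03, 5.45 and 5.71 in parental and 3.63, 2.98 and 2.75 in resistant libraries, a difference of -2.61 ± 0.28 (6.12-fold lower). In OV-90 they were 5.70 and 4.2002 in parental and 0.061, 2.44 and 1.67 in resistant libraries, a difference of -3.56 ± 0.86, with -2.81 without library 2 and -4.30 without library 3. The resistant OV-90 libraries thus spanned more than the parental ones, and 2 of the 3 were at the bottom. In Kuramochi the parental values reached from 0.031 to 1.94 and the gene was listed at 0 in all 3 resistant libraries, and in OVSAHO no library exceeded 0.71.

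MT1A, a coding MT1 gene, was higher in 1 resistant line and lower in 2. In EFO-21 its log2 values were 4.15, 3.45 and 4.40 in parental libraries and 0.89, 0.66 and 0.82, at the bottom, in resistant libraries, a difference of -3.21 ± 0.27 (9.26-fold lower). In Kuramochi they were 3.62, 2.17 and 1.28 in parental and 4.62, 3.85 and 4.41 in resistant libraries, a difference of 1.94 ± 0.60 (3.83-fold higher). The parental Kuramochi libraries differed by more than 2 among themselves, yet none reached the lowest resistant value. The parental value of 1.28 was at the bottom, so the size of this difference rests in part on it. In OV-90 the parental values of 5.67 and 4.21 stood above resistant values of 3.26, 3.12 and 2.83, a difference of -1.87 ± 0.49 that was -1.13 without library 2 and -2.60 without library 3. In OVSAHO all 6 libraries were at the bottom, with 0.68 to 1.49.

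MT1L, a transcribed pseudogene whose frame stops early as shown above, was lower in resistant EFO-21 and OVSAHO without overlap. In EFO-21 its log2 values were 4.24, 5.13 and 5.48 in parental and 2.07, 3.29 and 2.83 in resistant libraries, a difference of -2.22 ± 0.44. In OVSAHO they were 3.56, 3.28 and 3.43 in parental and 2.17, 2.73 and 2.13 in resistant libraries, a difference of -1.08 ± 0.22. In Kuramochi the groups overlapped, with 4.24, 5.48 and 5.24 in parental and 5.03, 4.24 and 4.80 in resistant libraries. In OV-90 they overlapped too, with 2.62 and 3.49 in parental libraries and 3.04, 1.89 and 0.058 in resistant libraries.

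MT1DP, the pseudogene for which the group was picked, was lower in the resistant libraries of each line, with no overlap. In Kuramochi its log2 values were 4.25, 5.24 and 4.51 in parental and 1.94, 1.84 and 2.56 in resistant libraries, a difference of -2.56 ± 0.34 (5.88-fold lower). In OV-90 they were 2.62 and 3.67 in parental and 1.31, 1.35 and 1.33 in resistant libraries, a difference of -1.81 ± 0.35, with -2.34 without library 2 and -1.29 without library 3. In OVSAHO they were 3.11, 2.99 and 2.73 in parental and 1.76, 1.95 and 1.12 in resistant libraries, a difference of -1.33 ± 0.26. In EFO-21 they were 3.04, 2.69 and 3.51 in parental and 2.07, 2.00 and 1.61 in resistant libraries, a difference of -1.19 ± 0.26. Of the 12 resistant libraries 6 were at the bottom, among them all 3 of OV-90, so the size of the difference there depends on values near the lower end of the table. Its value is the mean over 2 exons and that of MT1L comes from 1 exon, whereas the coding members rest on a robust model over 2 (MT1M) to 7 (MT1E, MT1X) exon features.

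Over the 36 differences (9 members in 4 lines), 29 were below 0, 7 were above 0, and 26 had no overlap between groups. A difference was called where limma's adjusted p was under 0.05 and the change at least 2-fold, which held for 14 lower values and 1 higher value. In EFO-21, 6 of 9 members were called, all lower, beside 14.3% of all genes called (7.11% higher and 7.15% lower), and 8 of 9 did not overlap beside 59.7% of all genes. In OV-90, 4 of 9 were called, all lower, beside 16.1% of all genes (9.5% higher and 6.56% lower), and 6 did not overlap beside 69.1%. In OVSAHO, 3 of 9 were called, all lower, beside 7.76% of all genes (3.93% higher and 3.83% lower), and 7 did not overlap beside 48.4%. In Kuramochi, 2 of 9 were called, MT1A higher and MT1DP lower, beside 22.5% of all genes (11.8% higher and 10.6% lower), and 5 did not overlap beside 59.2%. The median difference of the members was -2.22 in EFO-21, -1.39 in OV-90, -0.67 in OVSAHO and -0.067 in Kuramochi, beside medians of 0.0099, -0.065, 0.0021 and -0.019 over all genes. Because this contrast was used to pick the group, the member counts are not evidence about it. Leaving out any 1 of the 3 resistant OV-90 libraries left 0 members called there, with differences of -1.96 to -1.75 for MT1A, -1.82 to -1.80 for MT1DP, -1.85 to -1.57 for MT1G and -4.08 to -2.89 for MT1M, the 4 members called with all libraries. Without parental library 3, 6 members were called in OV-90, and leaving out 1 of the Kuramochi libraries numbered 5, 16, 17 or 18 left 1.

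**Figure D2:**
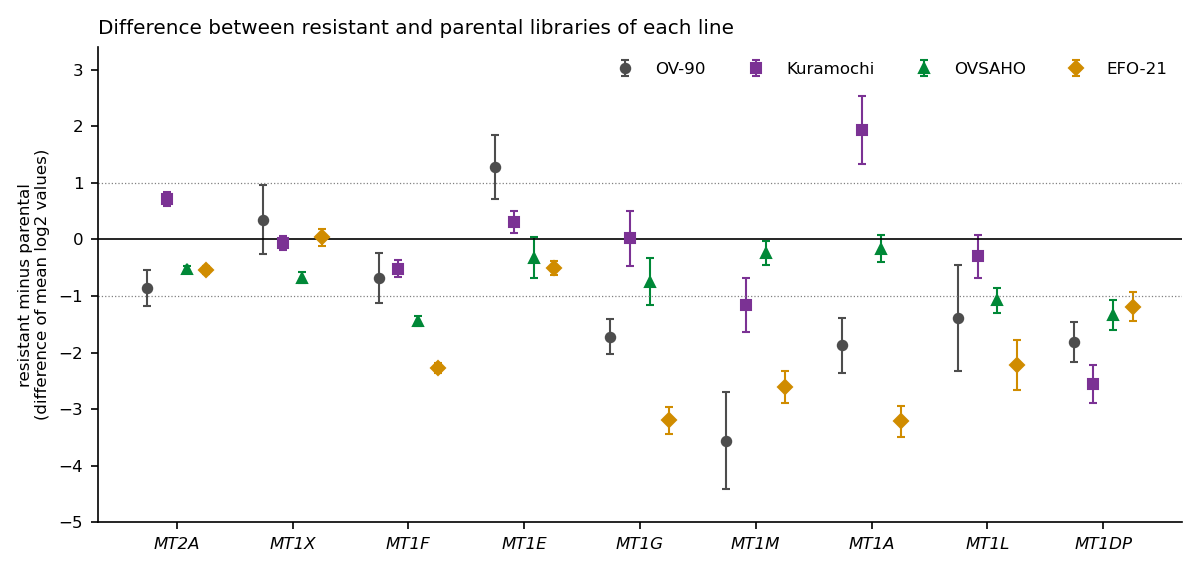
Difference of mean log2 values, resistant minus parental, with its SE (vertical axis), for each metallothionein (horizontal axis) in the 4 lines; dotted lines mark a 2-fold change. MT1DP lies below -1 in all 4 lines, MT1A is at 1.94 in Kuramochi and -3.21 in EFO-21, and MT2A stays between -0.85 and 0.71.

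The parental lines were compared with each other, a contrast that the choice of members did not use. All 9 members differed between the 4 parental lines (limma F-test, adjusted p under 0.05, and group means at least 2-fold apart), beside 79.7% of all genes, so a difference between lines was the rule in this table. The range of the 4 group means ran from 1.72 (MT1DP) to 6.99 (MT1E) on the log2 scale. The members fell into opposite orders. MT1E (F-test adjusted p = 3.49e-07), MT1G (1.81e-06) and MT1M (7.61e-06) were high in EFO-21 and OV-90, and MT1F (3.19e-06) and MT1X (5.92e-06) were highest in Kuramochi and OVSAHO.

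For MT1E the parental means ran 7.55 in EFO-21, 5.13 in OV-90, 0.87 in OVSAHO and 0.57 in Kuramochi, and all neighbours in this order differed except OVSAHO and Kuramochi (pairwise limma contrast, adjusted p = 0.580). For MT1G the order was 7.48 in OV-90, 5.04 in EFO-21, 1.08 in OVSAHO and 1.07 in Kuramochi, with OVSAHO and Kuramochi not told apart (adjusted p = 0.996). For MT1M the order was 5.73 in EFO-21, 4.95 in OV-90, 1.16 in Kuramochi and 0.25 in OVSAHO, and only OV-90 and Kuramochi differed among neighbours (adjusted p = 0.000233). These 3 genes therefore split the lines into the same pairs. MT1A followed OV-90 (4.94), EFO-21 (4.002), Kuramochi (2.36) and OVSAHO (1.16), and only EFO-21 and Kuramochi differed among neighbours (adjusted p = 0.0296).

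For MT1F the order was 9.95 in Kuramochi, 9.59 in OVSAHO, 7.81 in EFO-21 and 6.29 in OV-90, and Kuramochi and OVSAHO did not differ beyond their spread (adjusted p = 0.282). For MT1X it was 9.64, 7.99, 6.40 and 4.72 in the same order, and all 3 neighbouring pairs differed (adjusted p of 0.00301 to 0.00437). MT2A, with 12.38 in Kuramochi, 11.62 in EFO-21, 10.09 in OVSAHO and 8.80 in OV-90, also differed between all neighbours (adjusted p of 0.000115 to 0.0104). MT2A thus put EFO-21 above OVSAHO, where MT1F and MT1X had the reverse. Of the pseudogenes, MT1DP was higher in Kuramochi (4.67) than in OV-90 (3.14, adjusted p = 0.00632), and OV-90, EFO-21 and OVSAHO did not differ among neighbours. MT1L was near 4.95 to 4.99 in EFO-21 and Kuramochi and differed between EFO-21 and OVSAHO (3.42, adjusted p = 0.00653).

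Between the 4 resistant lines 8 of 9 members differed by the same rule, beside 78.4% of all genes. MT1DP was not called, and its resistant means lay within 0.78 of each other, from 1.33 in OV-90 to 2.11 in Kuramochi. This is a description, since the group was picked on low resistant values of MT1DP, and 6 of these 12 libraries were at the bottom. The order of the 4 means was kept for MT2A, MT1X and MT1L. The range of MT2A means was 5.15 among resistant against 3.58 among parental lines. Of the resistant MT1L neighbours only Kuramochi and EFO-21 differed (pairwise limma contrast, adjusted p = 0.0131). In MT1E, MT1G and MT1M only Kuramochi and OVSAHO changed places, and these lines did not differ in either state. The order of MT1A was another, since resistant Kuramochi came first with 4.29, above OV-90 with 3.07 (adjusted p = 0.000883), and EFO-21 came last with 0.79. In MT1F, resistant EFO-21 (5.54) and OV-90 (5.61) no longer differed beyond their spread (adjusted p = 0.700).

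MT2A and MT1X also varied together from library to library within groups. The Pearson correlation of their deviations from the group means was 0.94 over 23 libraries, and 0.81 over the 21 libraries without parental OV-90. Among the pairs of members 0.94 was the highest such value, followed by 0.67 (MT1E and MT2A). The pair is thus a selected one, and deviations from a shared group mean are not independent of each other. MT2A and MT2P1, a processed pseudogene copy of MT2A on chromosome 4 (69242041 to 69242223), had a correlation of 0.99 across the 23 libraries and 0.94 between deviations. MT2P1 and MT2A share 20 windows of 50 bases between their annotated transcripts, so reads of MT2A may have been counted for the copy. MT2A and MT1X share 14 such windows, and the part of shared reads in either correlation was not tested. MT1E and MT1F were opposed across the 23 libraries, with a correlation of -0.80, but their deviations from the group means had one of 0.39, or -0.37 without parental OV-90. These correlations are descriptions, since libraries of 1 line share its genetic background and all libraries share 1 normalization.

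**Figure D3:**
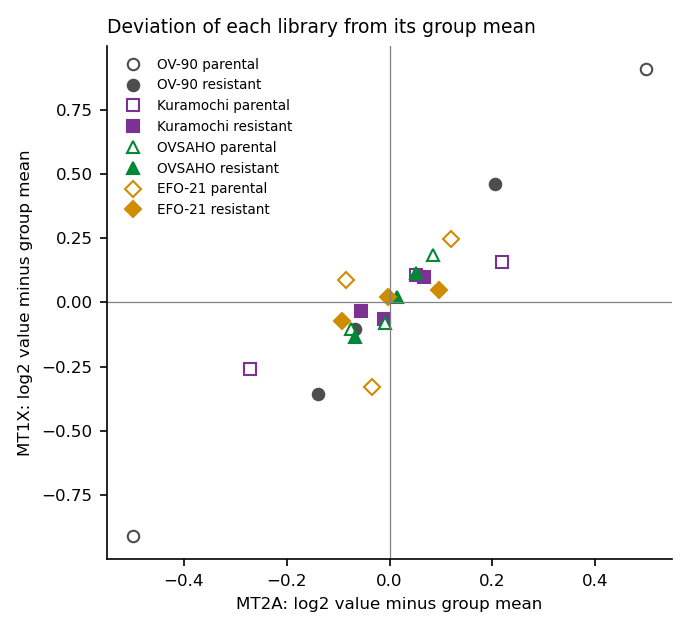
Deviation of the log2 value of each library from its group mean for MT2A (horizontal axis) and MT1X (vertical axis), with open symbols for parental and filled symbols for resistant libraries. The 23 points run along the diagonal (r = 0.94), and the parental OV-90 libraries are the farthest from 0 at either end.

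Shared sequence can limit how far single members can be told apart. Among 50-base windows of the main annotated transcript, 19.9% of MT1G, 14.6% of MT1M, 11.7% of MT1L and 11.1% of MT2A also occurred in a transcript of another gene at a different locus, as did 64 of the 355 windows of MT1X. The share was 6.12% for MT1F, 5.76% for MT1A and 5.34% for MT1E, and 0 of the 101 windows of MT1DP were shared. Annotated transcripts that overlap MT1X, MT1L and MT1DP at the same place were left out of this count, and their reads cannot be told apart from those of the members. MT1G and MT1X have 47 windows in common. How the authors assigned reads that match several genes is not stated in the sources used here. The paper gives paired reads longer than these windows, so a shared window need not make a read ambiguous. Whether the larger shares of MT1G, MT1X, MT1M, MT1L and MT2A affected their values was not tested.

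The promoters of MT2A and MT1X, the pair that varied together, are shown because metal response elements are the sites that MTF1 binds. Each line gives the 250 bases before the start of the gene from RefSeq on GRCh38.p14, 5′ to 3′ on the plus strand, with matches to TGCACNC or TGCGCNC on either strand in capitals.
MT2A, chr16:56608334-56608583: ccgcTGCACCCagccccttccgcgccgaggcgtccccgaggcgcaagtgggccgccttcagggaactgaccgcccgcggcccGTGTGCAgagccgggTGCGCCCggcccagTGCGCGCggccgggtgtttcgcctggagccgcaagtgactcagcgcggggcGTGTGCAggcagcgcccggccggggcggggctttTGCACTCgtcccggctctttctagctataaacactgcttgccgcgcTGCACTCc
MT1X, chr16:56682220-56682469: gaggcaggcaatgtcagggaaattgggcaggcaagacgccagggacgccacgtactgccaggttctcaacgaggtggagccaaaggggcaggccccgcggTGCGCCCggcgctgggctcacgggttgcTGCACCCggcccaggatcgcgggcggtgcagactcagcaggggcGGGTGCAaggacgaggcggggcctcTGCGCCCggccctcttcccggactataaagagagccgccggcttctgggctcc

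MT2A had 7 matches in this window, 5 of them on the plus strand, and MT1X had 4. Of 35116 promoters in the reference set, 24.8% held at least 1 match in the same window and 0.37% held 4 or more. A match describes the letters and is not a measured binding site. Only these 2 promoters were examined among the members, and the part of the matches in the correlation of MT2A and MT1X was not tested.

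MT3, the metallothionein best known from the brain and no member of the list, lies beside the cluster on the side of MT2A. It was named because it was called lower in at least 2 lines. Its adjusted p-values thus belong to a gene picked on this same contrast and are no independent test. It fell in resistant OVSAHO, from 6.49, 6.01 and 6.31 to 3.68, 3.27 and 4.06, a difference of -2.60 ± 0.24 (adjusted p = 0.00101). In EFO-21 it fell from 2.72, 3.00 and 2.16 to values of 1.77 and 1.36 in 2 resistant libraries and a listed 0 in the third, a difference of -1.58 ± 0.50 (adjusted p = 0.0404). In Kuramochi the difference of -1.18 ± 0.44 did not pass (adjusted p = 0.0692) but was called without library 4 (-1.66), and in OV-90 MT3 was at the bottom in all 5 libraries. The EFO-21 call was lost without library 10, 11, 12 or 24, with differences of -1.82 to -1.40, and without a variance trend.

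MTF1, the zinc sensor that drives metallothionein transcription, passed the 2-fold limit in no line. Its difference was 0.80 ± 0.15 in OV-90 (adjusted p = 0.0254) and -0.65 ± 0.15 in EFO-21 (adjusted p = 0.0160), where resistant libraries of 5.01, 4.68 and 4.97 lay below parental ones of 5.68, 5.59 and 5.32. In OVSAHO it was 0.25 ± 0.11 (adjusted p = 0.128) and in Kuramochi 0.059 ± 0.24 (adjusted p = 0.863). SLC30A1, the cell surface zinc exporter and a known MTF1 target, also stayed under 2-fold, with 0.68 ± 0.12 in OV-90, 0.28 ± 0.07 in OVSAHO, 0.24 ± 0.27 in Kuramochi and -0.11 ± 0.07 in EFO-21. Both genes had differences above 0 in OV-90, Kuramochi and OVSAHO, not all of which passed the adjusted p.

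SLC39A8, a carrier that brings zinc, manganese and cadmium into cells, fell in 3 lines. In Kuramochi its log2 values were 9.89, 9.63 and 9.58 in parental and 7.49, 7.56 and 7.53 in resistant libraries, a fall of 2.18 (difference -2.18 ± 0.09, adjusted p = 2.11e-05). In EFO-21 they were 7.68, 7.53 and 7.57 in parental and 5.16, 5.36 and 5.39 in resistant libraries (difference -2.29 ± 0.09, adjusted p = 2.58e-05). In OV-90 the difference was -1.09 ± 0.15 (adjusted p = 0.0153), and this call was lost when parental library 3 (-0.99) or any of the resistant libraries 13, 14 and 15 was left out (-1.15 to -1.02). In OVSAHO the difference of -0.84 ± 0.13 passed the adjusted p (0.00496) but not the 2-fold limit. The groups did not overlap in any line. SLC39A8, and SLC30A3, SGK1, FKBP5, TSC22D3, DUSP1 and TXNRD1 below, were named by the same rule as MT3. SCO2, COMMD1 and SLC31A2 were named as the largest called changes of a line. The adjusted p-values of all these genes are therefore no independent test. SLC39A10, another zinc importer, was called in none, with 1.54 ± 0.46 in OV-90 (adjusted p = 0.0549), where it was 0.86 without library 2 and 2.23, and then called, without library 3. Its Kuramochi difference of -0.89 ± 0.24 was -1.02, and called, without library 6.

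SLC30A3, a zinc exporter known from synaptic vesicles, rose in 3 lines. In OVSAHO its log2 values were 1.68, 1.81 and 2.02 in parental and 4.15, 4.29 and 3.73 in resistant libraries (difference 2.22 ± 0.21, adjusted p = 0.00111). In Kuramochi the difference was 1.80 ± 0.27 (adjusted p = 0.00253) and in EFO-21 1.53 ± 0.35 (adjusted p = 0.0132). In OV-90 it was 0.90 ± 0.30 (adjusted p = 0.0738), with 1.28, and then called, without library 2 and 0.52 without library 3. Its parental values in these 3 called lines were at or near the bottom. SLC30A4 and SLC30A2 were chosen after their values were seen. SLC30A4 rose in Kuramochi from 0.97 to 1.16 up to 4.43 to 4.98 (difference 3.58 ± 0.23, adjusted p = 8.14e-05). SLC30A2 fell in EFO-21 from 4.87 to 5.29 down to 1.03 to 2.16 (difference -3.47 ± 0.32, adjusted p = 0.000443). The parental SLC30A4 values and the lowest resistant SLC30A2 value were at the bottom, so the sizes rest in part on them.

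**Figure D4:**
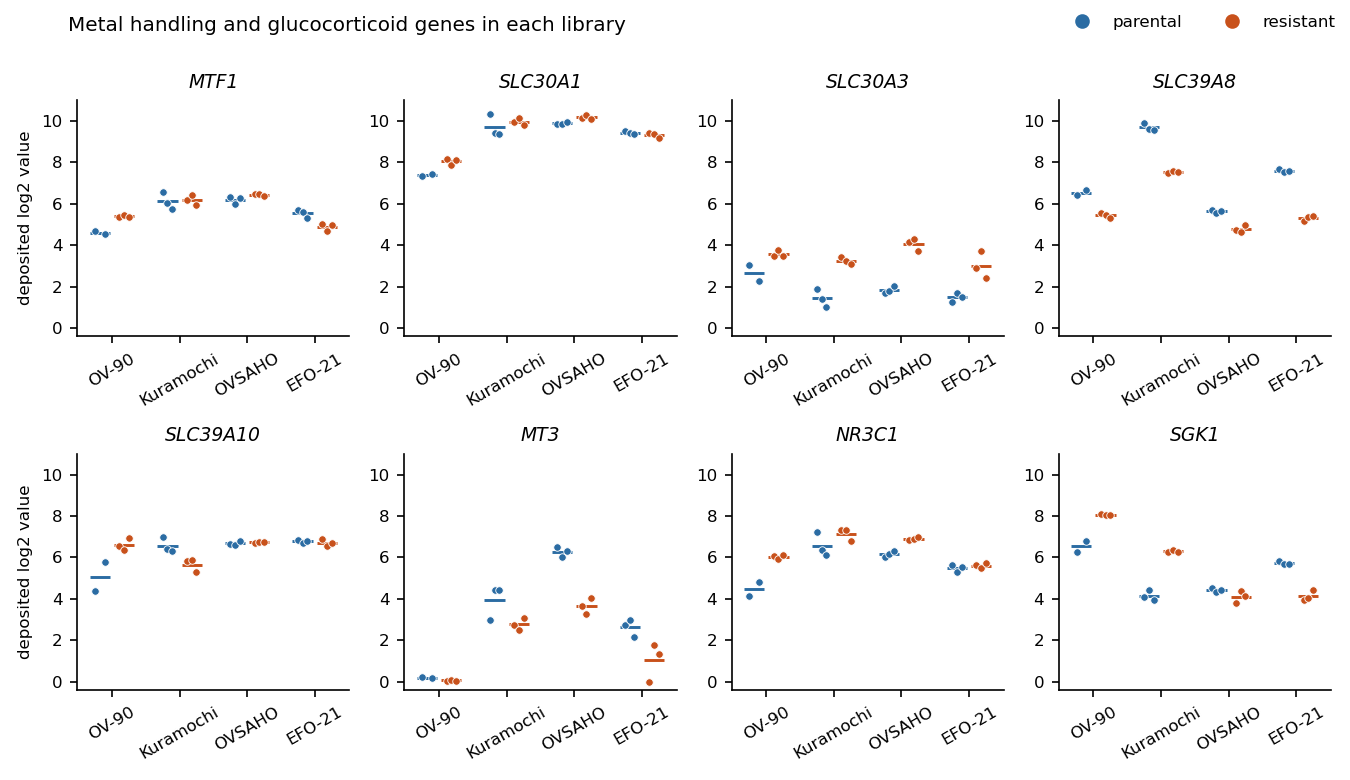
Deposited log2 values (vertical axis) of 8 genes of metal handling and glucocorticoid response in 23 libraries, by cell line (horizontal axis), with parental libraries in blue, resistant libraries in orange and bars at group means. SLC39A8 is lower and SLC30A3 higher in the resistant libraries of each line, and SGK1 is higher in resistant OV-90 and Kuramochi but lower in resistant EFO-21.

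By list, 9 zinc exporters of the SLC30 family had 1 called in OV-90 (SLC30A6, higher), 2 in Kuramochi (higher), 1 in OVSAHO (higher) and 2 in EFO-21 (1 in each direction). Of 12 zinc importers of the SLC39 family, 2 were called in OV-90 (SLC39A14 higher and SLC39A8 lower), 1 in Kuramochi and 1 in EFO-21 (SLC39A8 in both), and 0 in OVSAHO. Of 11 genes of metal sensing and copper handling, 5 were called in OV-90, where the copper transporter genes SLC31A1 (1.03 ± 0.14, adjusted p = 0.0145), ATP7A (1.17 ± 0.32, adjusted p = 0.0468) and ATP7B (1.58 ± 0.28, adjusted p = 0.0225) rose and SCO2 and COMMD1 fell. SLC30A6, SLC39A14, SLC31A1, ATP7A and ATP7B were named after their values were seen. SCO2, a copper chaperone of cytochrome c oxidase, fell by 1.51 ± 0.36 on the log2 scale (adjusted p = 0.0356) and COMMD1, a copper homeostasis factor, by 1.29 ± 0.25 (adjusted p = 0.0254). In Kuramochi 1 gene of that list was called, SLC31A2, a low-affinity copper transporter (1.69 ± 0.30, adjusted p = 0.00486), and in OVSAHO and EFO-21 0 were. Together, 12 of 47 measured genes of the 6 metal and stress lists were called in OV-90 (25.5%), 10 in Kuramochi (21.3%), 3 in OVSAHO (6.38%) and 7 in EFO-21 (14.9%), beside the shares of all genes given above. All 12 OV-90 calls were lost when any 1 of the resistant libraries was left out, which leaves 2 libraries a group, although each difference kept its direction (1.51 to 1.65 for ATP7B and 0.99 to 1.05 for SLC31A1, for example). Further, 8 genes were called without parental library 2, and 19 genes were called without parental library 3. The median difference of the 47 genes was 0.45 in OV-90, 0.05 in Kuramochi, -0.12 in OVSAHO and -0.02 in EFO-21.

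Glucocorticoid response genes did not move in 1 direction. Of 6 measured genes (NR3C1 and 5 known targets), 3 were called in OV-90, 3 in Kuramochi, 1 in OVSAHO and 3 in EFO-21. Over all genes the shares called were 16.1%, 22.5%, 7.76% and 14.3% in the same order of lines. NR3C1, the glucocorticoid receptor, rose in OV-90 (1.57 ± 0.25, adjusted p = 0.0192), and its differences were 0.58 ± 0.31 in Kuramochi, 0.73 ± 0.10 in OVSAHO and 0.10 ± 0.13 in EFO-21. SGK1, a kinase gene induced by glucocorticoids, rose in Kuramochi (2.14 ± 0.17, adjusted p = 0.000182) and OV-90 (1.52 ± 0.16, adjusted p = 0.0107) and fell in EFO-21 (-1.58 ± 0.16, adjusted p = 0.000691). FKBP5, a co-chaperone of the receptor, rose in OVSAHO (1.85 ± 0.09, adjusted p = 0.000130) and EFO-21 (1.07 ± 0.07, adjusted p = 0.000160), and fell just short of 2-fold in EFO-21 without library 11. TSC22D3, which encodes a glucocorticoid-induced leucine zipper protein, fell in Kuramochi (-1.33 ± 0.20, adjusted p = 0.00230) and OV-90 (-1.01 ± 0.23, adjusted p = 0.0330). DUSP1, a MAP kinase phosphatase gene, rose in Kuramochi (1.05 ± 0.05, adjusted p = 3.51e-05) and EFO-21 (1.05 ± 0.09, adjusted p = 0.000354), the latter under 2-fold without library 22 (0.95). In OV-90, FKBP5 (-1.06) and DUSP1 (1.12) were called without library 2 and not with both parental libraries.

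Among 8 genes of metal and oxidant stress, TXNRD1, thioredoxin reductase, rose in OV-90 (1.39 ± 0.35, adjusted p = 0.0385) and Kuramochi (1.09 ± 0.13, adjusted p = 0.00109). HMOX1, the heme oxygenase gene that cadmium induces, rose in Kuramochi (1.29 ± 0.11, adjusted p = 0.000259) and was named after its values were seen, as was SLC7A11, the cystine carrier gene, which fell there (-1.52 ± 0.39, adjusted p = 0.0202). In OVSAHO and EFO-21 0 of the 8 were called, beside 7.76% and 14.3% of all genes. In OV-90, NR3C1, SGK1, TSC22D3, TXNRD1, SCO2 and COMMD1 lost their calls when any 1 resistant library was left out, while their differences stayed near those above. They were 1.53 to 1.64 for NR3C1, 1.51 to 1.53 for SGK1, -1.10 to -0.93 for TSC22D3, 1.34 to 1.44 for TXNRD1, -1.73 to -1.31 for SCO2 and -1.46 to -1.20 for COMMD1. TXNRD1 also lost its call without a variance trend (adjusted p = 0.0504). Those of TSC22D3, TXNRD1, SCO2 and COMMD1 were also lost without parental library 2, with -0.84, 0.82, -1.10 and -1.01.

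The genes on either side of the cluster were compared in the same way. Of 13 measured flanking genes, 0 were called by limma in OV-90, OVSAHO and EFO-21, beside 16.1%, 7.76% and 14.3% of all genes. With no fold limit, 4, 6 and 6 had an adjusted p under 0.05 in these lines, and the share of all genes was not computed. In Kuramochi 4 were called (30.8%), all higher, beside 22.5% of all genes. BBS2, a gene of the Bardet-Biedl syndrome complex on the side of MT2A, differed by 0.02 ± 0.09 in OV-90, 0.31 ± 0.07 in Kuramochi, -0.21 ± 0.07 in OVSAHO and 0.30 ± 0.06 in EFO-21. NUP93, a nuclear pore gene next to MT1X, differed by -0.11 ± 0.06, 0.24 ± 0.09, -0.20 ± 0.04 and 0.12 ± 0.04 in the same order of lines. OGFOD1, a ribosomal protein hydroxylase gene, was at 0.46 ± 0.08, 0.25 ± 0.06, 0.0006 ± 0.065 and -0.008 ± 0.094. HERPUD1, an endoplasmic reticulum stress gene, was at -0.07 ± 0.12, 0.81 ± 0.07, -0.19 ± 0.05 and -0.27 ± 0.07. The Kuramochi calls, named after their values were seen, were GNAO1 (3.06 ± 0.31, adjusted p = 0.000497), SLC12A3 (1.89 ± 0.26, adjusted p = 0.00162), NLRC5 (2.12 ± 0.17, adjusted p = 0.000202) and CPNE2 (1.48 ± 0.13, adjusted p = 0.000258). The parental values of GNAO1 (0.54 to 1.37) and SLC12A3 (0.76 to 1.22) were all at the bottom, so the size of their differences rests in part on them. The median of the 13 flanking genes was 0.02 in OV-90, 0.38 in Kuramochi, -0.11 in OVSAHO and 0.30 in EFO-21.

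**Figure D5:**
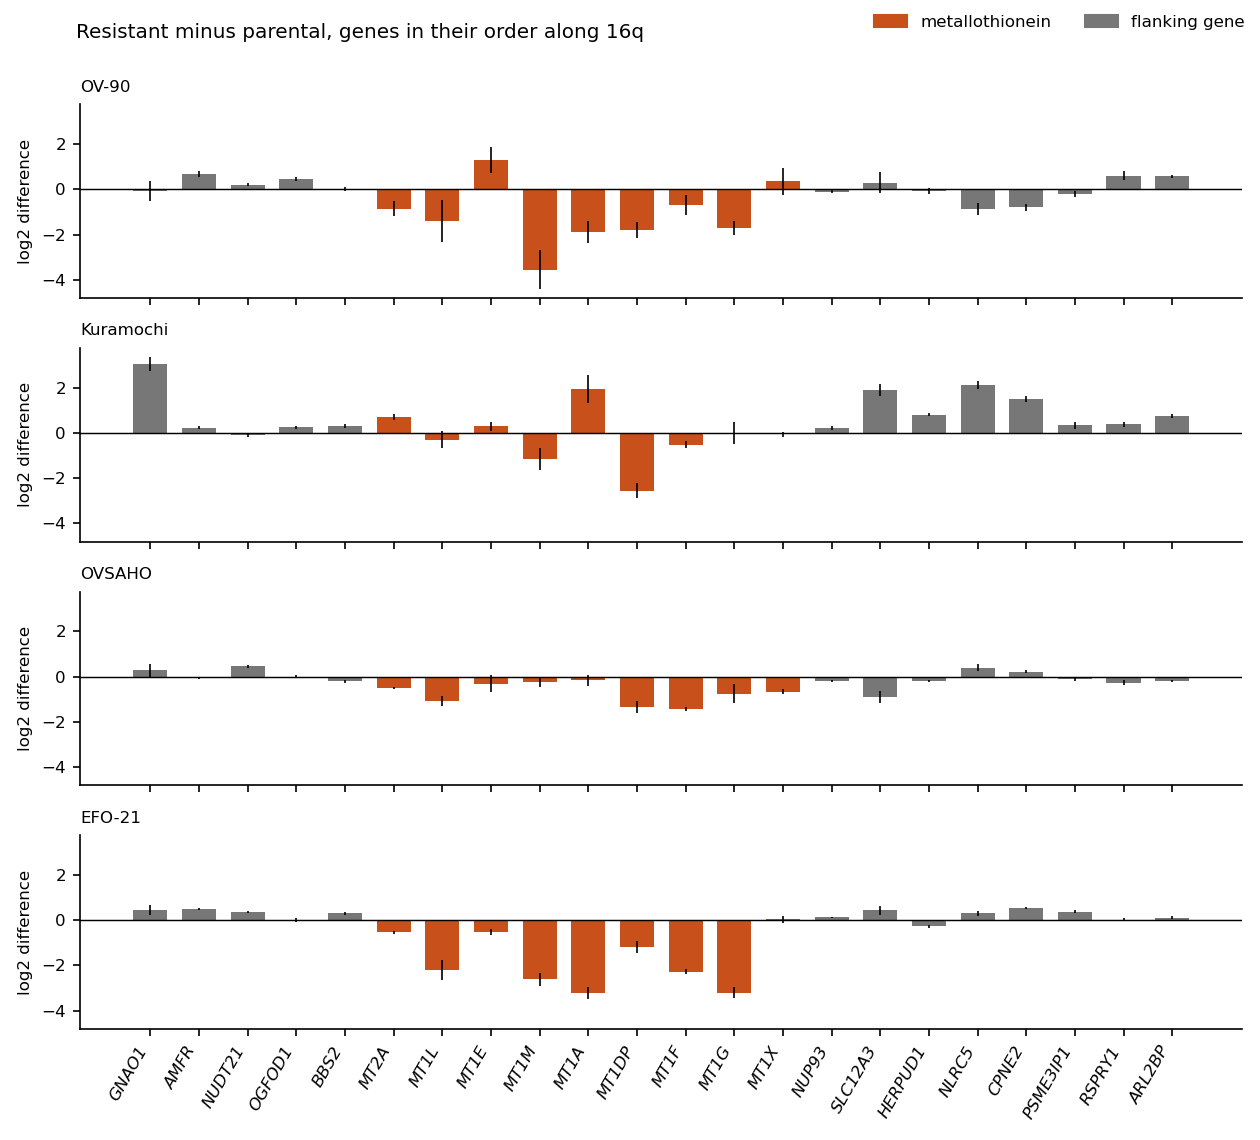
Resistant minus parental log2 difference (vertical axis, bars from 0, lines for the SE) of metallothioneins (orange) and flanking genes (grey) in their order along chromosome 16 (horizontal axis), 1 panel per line. In EFO-21 the members reach -3.21 while BBS2 and NUP93 on either side are at 0.30 and 0.12. In Kuramochi the flanking genes rise up to 3.06 (GNAO1) on the side of MT2A and 2.12 (NLRC5) on the side of MT1X. The parental Kuramochi values of GNAO1 were at the bottom. MT3, which lies between BBS2 and MT2A and fell in OVSAHO and EFO-21, is not drawn.

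A gene with the same pattern as the members was sought by correlating every gene with the mean centred value of the 5 members with at least 1 group mean over the median level of all genes (MT1E, MT1F, MT1G, MT1X and MT2A). The mean represented its own members poorly, with correlations of 0.08 (MT1F) to 0.55 (MT2A) over 23 libraries. Among the 5 genes most like it were ORC3, a subunit of the origin recognition complex (0.91), COXFA4L2 (0.90), RIT1, a RAS-related GTPase (0.89), and CHRNB1, a muscle acetylcholine receptor subunit (0.89), given as a description of 23 libraries from 4 lines.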

How the data were processed

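The 23 libraries were stranded mRNA preparations whose reads the authors aligned to GRCh37/hg19 and summarised per gene, by a robust linear model over exons (16448 genes) or a mean of log2 exon values (5210 genes). The log2 values the authors deposited were quantile normalized. The number of exons behind each gene is also deposited. The annotation release and the handling of reads matching several genes are not given in the sources used here. Symbols were matched for 20745 of 21658 gene IDs (95.8%), and 0 columns belonged to other samples.

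Libraries were grouped by line and resistance. Resistant and parental libraries of each line, and the 4 lines within each state, were compared with limma (version 3.58.1, R 4.3.3; lmFit and eBayes with trend, two-sided), with Benjamini-Hochberg adjustment over all genes. A gene was called at an adjusted p under 0.05 and a 2-fold change. With 3 against 3 libraries an exact permutation p cannot go below 0.1. The code was tested on simulated libraries.

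The members and gene lists were chosen with earlier results of these data known. Named from the lists were MTF1, SLC30A1, SLC39A10, NR3C1, 4 flanking genes, genes called one way in at least 2 lines, in each line the 2 largest called rises and falls among genes above the median level, and the 5 genes most correlated with the mean of members, 1 of which is not reported here. All members were named.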

Additional observations from a re-analysis of the deposited data

Results flagged for a closer look

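Resistant and parental libraries moved in opposite directions without overlap in 2 lines for 3 members, and the difference between lines was not tested because the choice of members used this contrast. The share of all genes that did so was not computed. Within a line, 48.4% (OVSAHO) to 69.1% (OV-90) of all genes did not overlap, so the count is no result about the members. MT1A differed by 1.94 in Kuramochi and -3.21 in EFO-21, which are 5.15 apart on the log2 scale. MT1E differed by 1.28 in OV-90 and -0.51 in EFO-21, 1.79 apart, and the OV-90 value depended on its parental library. MT2A differed by 0.71 in Kuramochi and -0.85 in OV-90, 1.57 apart.

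The same held for 18 genes named above from the metal, glucocorticoid, stress and flanking lists. Here too the difference between lines was not tested and no share of all genes was computed. Cell type markers and listed genes that were not named were not examined for this. SGK1 stood 3.72 apart between Kuramochi and EFO-21, FKBP5 2.58 apart between OVSAHO and OV-90, SLC39A10 2.44 apart between OV-90 and Kuramochi, and SLC31A2 2.41 apart between Kuramochi and EFO-21. TXNRD1 stood 1.95 apart and MTF1 1.45 apart between OV-90 and EFO-21, and DUSP1 1.37 apart between EFO-21 and OVSAHO. Of the flanking genes, HERPUD1 was 1.08 apart between Kuramochi and EFO-21, and BBS2 was 0.52 and NUP93 0.44 apart between Kuramochi and OVSAHO. Of the genes named after their values were seen, NLRC5 stood 2.99, CPNE2 2.28 and HMOX1 2.15 apart between Kuramochi and OV-90, SLC12A3 2.80 between Kuramochi and OVSAHO, and SLC7A11 2.46 between OVSAHO and Kuramochi. SLC30A6 stood 1.87 apart between OV-90 and Kuramochi, and ATP7B 1.87 and SLC39A14 1.61 between OV-90 and OVSAHO. Groups of 3 libraries are too small for an outlier test.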

How the results depend on the processing

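No paired analysis was possible because the columns of the table carry library numbers but no replicate numbers. The filter at the 25th percentile of gene means removed 4 to 6 of the 9 members before testing. MT1DP, for which the group was picked, and MT1A were removed in every fit. Of the members left, 1 was called in OV-90, 0 in Kuramochi, 1 in OVSAHO and 2 in EFO-21. With this filter 4 metal handling genes were called in EFO-21 and 2 flanking genes in Kuramochi. Between lines, 4 members differed among parental and 3 among resistant lines. With no fold threshold, 4, 4, 5 and 8 members were called in OV-90, Kuramochi, OVSAHO and EFO-21. In the same order, metal handling genes called were 23, 22, 16 and 24 and flanking genes 4, 10, 6 and 6. At 1.5-fold, metal handling genes were 19, 20, 7 and 12, and flanking genes 2 in OV-90 and 1 in OVSAHO. No share of all genes was computed for these or the following alternative settings, so the counts cannot be set against all genes. Leaving out 1 library gave 0 to 6 members called in OV-90, 1 to 2 in Kuramochi, 2 to 3 in OVSAHO and 5 to 6 in EFO-21. Metal handling genes ranged from 0 to 19, 9 to 13, 3 to 4 and 5 to 7 in the same order, and flanking genes from 0 to 1 in OV-90 and OVSAHO. Where a parental OV-90 library was left out, the lone library was assumed to vary like the other group. In 1 joint fit 5 members were called in OV-90 and 2 in OVSAHO. Shifting libraries to 1 median changed no count by more than 1.5 times. Of the 36 member differences, 6 changed sign under at least 1 alternative, none of them called. For single named genes, 34 alternative values lost and 9 gained a call. Another 967 values, of named genes and members together, were labelled unchanged. For a member this meant a shift smaller than its SD within groups, and its call was not checked. Lost calls of members therefore appear only in the counts of members above. Depth is unknown, so precision rests on the spread between libraries.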
